A study of Mus musculus with 8 samples.

Results

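The kidney labelled uIRI+MSC was compared with sham kidney to describe which transcripts still differed from the uninjured state after injury and transplantation of cells. The comparison took 5 of the 8 libraries of the series, chosen by their treatment labels, 3 of uIRI+MSC and 2 of sham. Of 34745 genes listed, 16576 had enough counts to be tested. The abbreviation uIRI commonly means unilateral ischaemia-reperfusion injury, a clamp and release of the vessels of 1 kidney, and MSC mesenchymal stem (stromal) cells. Neither is spelled out in the labels. The source, dose and timing of the cells, and the strain, age and sex of the mice, were not given in the sources used. Every group was labelled as WT, as renal tissue and as day 14, so that sham, uIRI+MSC and the 3 libraries of uIRI without cells, whose values stand beside the others, differ only in the treatment label. Nothing in the labels ties the libraries of 1 group to different animals, so p-values measure only the spread between these samples, which may be technical.

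The proximal tubule reclaims most of the filtered salt, sugar, amino acids and phosphate, and it fuels that work by oxidising fatty acids in densely packed mitochondria. After ischaemia, surviving tubule cells lose transporters and oxidative enzymes and switch on repair genes such as Havcr1 and Sox9, and most regain their former state. Cells that do not regain it keep making adhesion molecules, chemokines and complement, and are found beside persistent leukocytes, matrix and epithelial atrophy.

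Total counts ran from 11.6 to 22.7 in units of 1e6 in uIRI+MSC and were 14.6 and 14.2 in sham. The first principal component, with 72.8% of the variance, held sham at 147 and 125, uIRI+MSC from -29.1 to -19.0 and uIRI from -89.6 to -53.5. Markers of the labelled tissue were present, with the proximal tubule list summing to 81087 and 61565 CPM in sham and 18017 to 23166 in uIRI+MSC. Here CPM is counts scaled to a library of 1e6 with edgeR's TMM factors. On the third component uIRI+MSC 3 was far from the rest (-62.3, against -8.32 to 15.1 in all others). In that library short genes were low and long genes high, as the plot of levels by gene length shows, and transcripts of mitochondrial DNA took 11.3% of the counts, against 6.07 and 6.24% in uIRI+MSC 1 and 2 and 14.2% in both sham libraries. Summed levels of the urothelial list (8 genes, Krt5 and Krt14 among them) were 71.0 CPM in sham 2 and 43.4 in uIRI+MSC 3, against 3.29 to 3.69 in sham 1 and uIRI+MSC 1 and 2, and none of these genes passed the test (2 fell without uIRI+MSC 3 and 2 without sham 1).

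**Figure D1:**
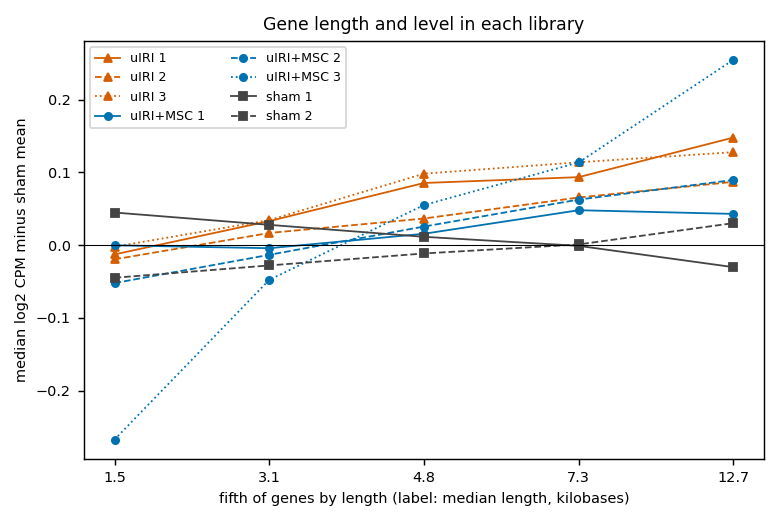
Median over the genes of each of 5 equal length bins (x axis, with the bin's median length in kilobases) of the log2 CPM minus the mean of the 2 sham libraries (y axis), 1 line per library. In uIRI+MSC 3 the line runs from -0.27 in the shortest bin to 0.25 in the longest, while uIRI+MSC 1 and 2 stay between -0.05 and 0.09.

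Injury and immune transcripts were still far above sham and transcripts of tubule transport and oxidative metabolism still below it. At an adjusted p of 0.05 in edgeR's quasi-likelihood test 7029 genes (42.4%) differed, 3671 higher (22.1%) and 3358 lower (20.3%). Differences of more than 2-fold, tested as such with glmTreat, were held by 2052 genes (12.4%), of which 1529 (9.22%) were higher and 523 (3.16%) lower. The groups did not overlap in 10643 genes (64.2%), so that a lack of overlap alone says little of a gene. At the other end 7346 genes (44.3%) lay within 0.5 of sham on the log2 scale. The same fit called 9044 genes (54.6%) in uIRI against sham, a comparison that shares the sham libraries. Between uIRI+MSC and uIRI, which share the uIRI+MSC libraries with the main comparison, edgeR and limma-voom called 0 genes, DESeq2 called 1364, and 3418 had an unadjusted p under 0.05 in edgeR. Values of uIRI are therefore set beside those of uIRI+MSC without a statement that the groups differ. The share of all genes without overlap between uIRI+MSC and uIRI was not counted. Where a gene below is said not to overlap between them, that describes its values only.

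How many genes were higher or lower depended on scaling. Where library size alone replaced the TMM factors, the median log2 change over all genes went from 0.03 to 0.55, and 7400 genes were higher and 1352 lower. All changes below are relative to the TMM scaling. The number of calls rests on the sham libraries, with 3938 genes without sham 1 and 5157 without sham 2. Precision followed abundance: of 5 equal bins, the least abundant had 29.9% of genes passing and a median SE of 0.59, and the most abundant 54.0% and 0.18.

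**Figure D2:**
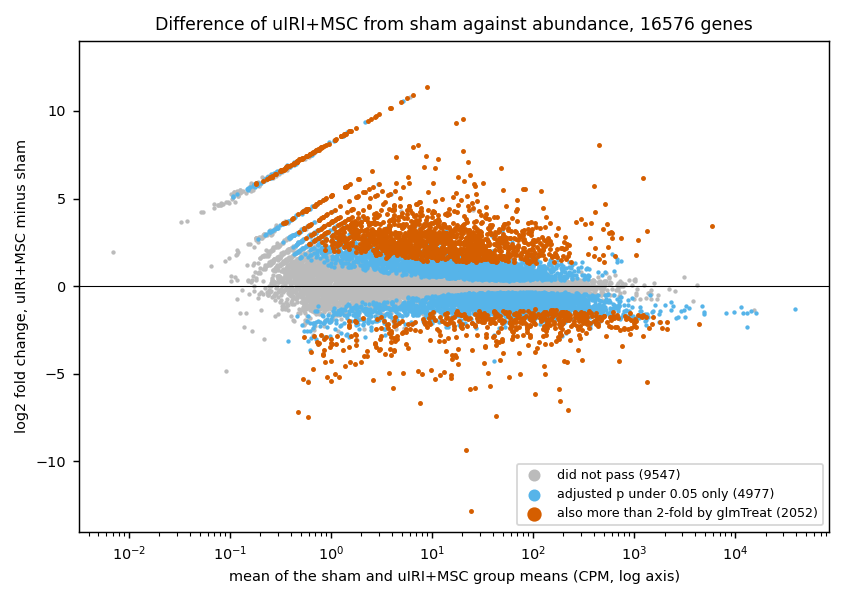
Log2 fold change of uIRI+MSC against sham (y axis) by mean level in CPM (x axis, log scale), 1 point per tested gene. The 2052 genes past the 2-fold test, in orange, are mostly rises, and the straight bands at the upper left are genes with 0 or a few counts in sham, whose fitted changes are not exact.

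Genes listed as markers of the injured tubule gave some of the largest differences. Bulk tissue does not show which cells made these transcripts. Havcr1 (ENSMUSG00000040405, chromosome 11, 46735080 to 46779578 on GRCm38), which encodes the tubule injury marker KIM-1, stood at 3.40 and 3.22 CPM in sham 1 and 2 and at 734, 1309 and 612 in uIRI+MSC 1, 2 and 3. Every uIRI+MSC library was above both sham libraries, and the log2 fold change was 8.06 ± 0.84 (SE, adjusted p = 0.000242). The untreated uIRI libraries held 135, 572 and 227 CPM, all below the lowest uIRI+MSC library, a difference of 1.51 on the log2 scale (95% interval 0.36 to 2.65) that did not pass (adjusted p = 0.158). Vcam1, an adhesion molecule of tubule cells that have not recovered, showed the same order, with 15.3 and 14.2 CPM in sham, 677, 1048 and 633 in uIRI+MSC and 366, 505 and 441 in uIRI, and changed by 5.74 ± 0.32 against sham (adjusted p = 5.05e-05). Lcn2, whose product NGAL binds bacterial iron carriers, was at 2.62 and 4.05 CPM in sham and 201, 116 and 151 in uIRI+MSC (log2 change 5.54 ± 0.34, adjusted p = 5.96e-05), a range that overlapped the 261, 194 and 238 of uIRI.

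Of 30 listed injured tubule genes 24 rose and none fell, at a median log2 change of 2.23 (2.52 in uIRI against sham), beside 22.1% higher and a median of 0.03 over all genes. The hyaluronan receptor gene Cd44 rose by 5.53 ± 0.30 and the retinoic acid synthesis gene Aldh1a2 by 4.58 ± 0.25. Krt20, a keratin of stressed tubule cells, had 0 and 0.368 CPM in sham and 37.6, 40.5 and 42.8 in uIRI+MSC. Its fitted change of 7.69 became 6.78 without sham 1 and 12.65 without sham 2, where the remaining library had no counts, so its size is not exact. Spp1 (osteopontin) and Clu (clusterin), secreted proteins, were among the 5 rises of highest CPM past the 2-fold test, a ranking that also depends on gene length. Spp1 held 823 and 1169.7 CPM in sham, 9026, 13178 and 9837 in uIRI+MSC and 4509, 6424 and 5335 in uIRI, a change of 3.42 ± 0.34 against sham. Clu rose by 2.62 ± 0.21. The keratin gene Krt7 (log2 change -0.11, 95% interval -0.65 to 0.42) and the integrin gene Itgb6 (-0.21, -0.75 to 0.32) were the nearest to sham of the 6 listed genes that did not pass.

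**Figure D3:**
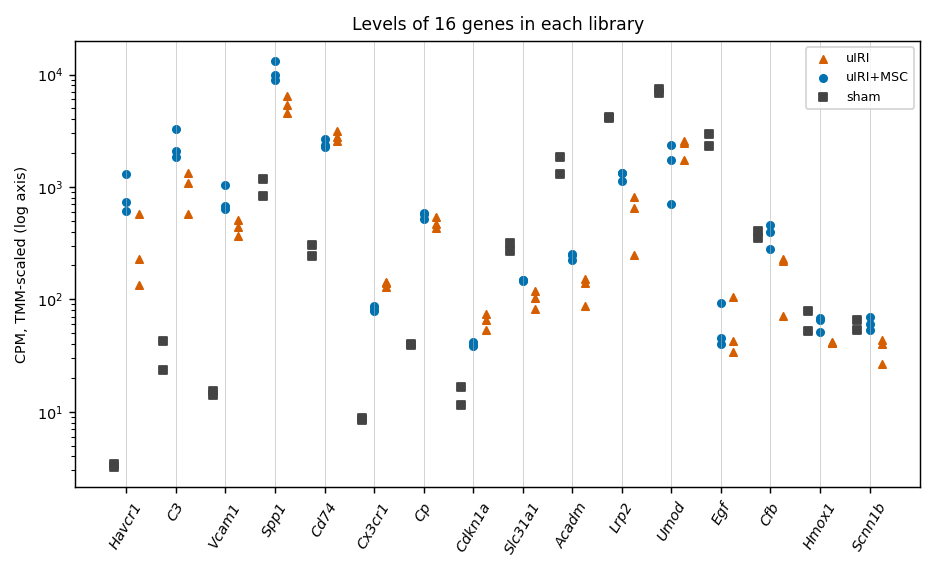
Levels in CPM (y axis, log scale) of 16 genes in each library, with sham as squares, uIRI+MSC as circles and uIRI as triangles. The uIRI+MSC circles lie above sham from Havcr1 to Cdkn1a, below it from Slc31a1 to Egf, and around the sham squares for Cfb, Hmox1 and Scnn1b.

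Complement genes, which opsonise and lyse targets, were mostly higher. C3, the central component, went from 23.7 and 42.9 CPM in sham to 2073, 3302 and 1838 in uIRI+MSC, and stood at 573, 1318 and 1088 in uIRI. All 3 uIRI+MSC libraries were above every library of both other groups. The change against sham was 6.17 ± 0.55 (adjusted p = 0.000131), and the difference from uIRI was 1.28 (95% interval 0.43 to 2.12, adjusted p = 0.129). The C1q genes of macrophages were ordered the other way, C1qa at 22.3 and 19.3 CPM in sham, 229.6, 213 and 189 in uIRI+MSC and 427, 326 and 544 in uIRI, a change of 3.34 ± 0.25 against sham. The complement list counted 16 rises and 2 falls among 21 genes (median 2.80), with 1 fall left without either sham library, without uIRI+MSC 1 or 2 and with library size alone. Cfb, the protease partner of C3 in the alternative pathway, did not pass, with 408 and 348 CPM in sham and 454, 398 and 278 in uIRI+MSC (log2 change -0.01, 95% interval -1.0 to 0.99), beside 71.6, 229 and 218 in uIRI. C8a, a component of the lytic pore, was among the 10 largest falls ranked below. It went from 60.6 and 33.1 to 0.837, 0.357 and 1.18 CPM.

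Leukocyte transcripts remained high. Of 24 macrophage genes 23 rose and Mertk, an engulfment receptor, did not pass (-0.24, 95% interval -0.74 to 0.27), with a list median of 3.39 (4.31 in uIRI). Cx3cr1, the fractalkine receptor of resident macrophages, stood at 8.36 and 8.75 CPM in sham, 81.9, 87.9 and 78.2 in uIRI+MSC and 143, 128 and 139 in uIRI, with no overlap of any groups. It was 9.66-fold above sham (log2 change 3.27 ± 0.14, adjusted p = 3.7e-05). Ccr2, the receptor that brings in blood monocytes, rose by 3.10 ± 0.19, and the lipopolysaccharide co-receptor gene Cd14 by 3.54 ± 0.24. In bulk tissue, more cells of a type and more RNA per cell cannot be told apart, nor, for the tubule genes below, fewer cells and less RNA per cell.

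Of 31 T and NK cell genes 25 rose and none fell (median 2.40). Cd4 (1.75 and 2.03 CPM in sham, 12.3, 18.1 and 12.8 in uIRI+MSC) changed by 2.92 ± 0.28 and the T cell kinase gene Lck by 2.15 ± 0.27. Cd3e, a chain of the T cell receptor complex, changed by 3.08 ± 0.33 (adjusted p = 0.000262) and by 3.73 without sham 2. B and plasma cell genes were less uniform. Of 19 tested 7 rose (4 without sham 1) and 12 did not pass, and the median of 1.20 was 0.32 without sham 1 and 2.04 without sham 2. The B cell receptor chain gene Cd79b rose by 2.92 ± 0.34, whereas the B cell surface gene Ms4a1 had at most 1.09 CPM in any of the 5 libraries and did not pass (0.83, 95% interval -0.72 to 2.37). Only 6 of 13 neutrophil genes had enough counts to be tested, of which 5 rose, 2 without sham 1, and 3 and 3 without sham 2 and uIRI+MSC 1. The share that rose depends on the count filter, since 5 of 12 neutrophil genes rose without it, at a median of 2.03 beside 2.78. The decoy receptor gene Il1r2 changed by 3.07 ± 0.58, from 0.194 and 0.184 CPM to 1.76, 1.14 and 2.02.

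Among 25 chemokine and receptor genes 22 rose and 1 fell, the fall being lost without sham 1, without uIRI+MSC 1 and with library size alone (median 3.18, or 3.11 where 4 genes without sham counts are set at their bound). Ccl2, which attracts monocytes, went from 0.583 and 0.645 to 36.8, 54.3 and 30.4 CPM, a change of 6.03 ± 0.58, and Cxcl16, which attracts T cells, from 48.8 and 45.2 to 233, 295 and 222, a change of 2.41 ± 0.17. Of 14 genes of lymphoid chemokines and lymph node stroma 10 rose (6 without sham 1 and 6 without sham 2), among them Tnfsf13b, the B cell survival factor BAFF (3.03 ± 0.35), and the stromal gene Pdpn (2.03 ± 0.21). Cxcl13, which organises B cell follicles, had 3 counts in sham and 16 in uIRI+MSC, a ratio of 2.27 (95% counting interval 0.649 to 12.1), and did not pass. This list held 18 genes, of which Ccl19, Ccl21a, Glycam1 and Chst4 had 0 counts in every library and were not tested. Its median of 3.02 was 2.40 with the 4 genes without sham counts at their bound. With at least 50 counts in 2 libraries required, only 8 of its genes were tested, and 7 rose.

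All 26 antigen presentation genes rose, 14 of them by more than 2-fold in glmTreat (median 2.02, 2.49 in uIRI). Without sham 2, 16 of the 26 passed. Cd74, the chaperone of MHC class II, held 302 and 243 CPM in sham, 2336, 2646 and 2278 in uIRI+MSC and 2795, 2567 and 3158 in uIRI, a change of 3.15 ± 0.23 (adjusted p = 7.75e-05). H2-Eb1, a class II beta chain, went from 137 and 113 to 1077, 1202 and 853 CPM (3.06 ± 0.25), and H2-Aa, the alpha chain of another class II molecule, from 142 and 103 to 1091, 1150.5 and 808 (3.05 ± 0.27). The dendritic cell integrin gene Itgax rose by 3.92 ± 0.26. Class I genes such as H2-D1 are near copies of one another, so their separate counts are uncertain. Class II genes are read from promoters that carry a Y box, so the 250 bases before the start of both genes are shown from RefSeq (GRCm38.p6), H2-Aa at chr17:34287824-34288073 on the minus strand and H2-Eb1 at chr17:34305617-34305866 on the plus strand, with the Y box letters CTGATTGG in capitals.
H2-Aa: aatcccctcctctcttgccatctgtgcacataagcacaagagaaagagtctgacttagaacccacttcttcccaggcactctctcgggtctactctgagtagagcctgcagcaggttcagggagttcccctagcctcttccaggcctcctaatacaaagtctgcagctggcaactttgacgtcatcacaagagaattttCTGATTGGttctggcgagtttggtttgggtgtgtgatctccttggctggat
H2-Eb1: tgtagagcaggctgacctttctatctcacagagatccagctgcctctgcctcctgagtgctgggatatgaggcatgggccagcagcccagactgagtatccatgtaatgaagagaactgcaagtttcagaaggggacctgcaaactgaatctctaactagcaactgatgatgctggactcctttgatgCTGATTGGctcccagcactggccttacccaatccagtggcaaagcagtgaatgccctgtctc
The letters CTGATTGG, searched on both strands, were in this window of 6 of the 20 listed genes found in the promoter table (30.0%), against 4.43% of all 27025 genes there. All 6 rose, as did the 14 without them. A match describes letters in a window and not a bound site.

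Interferon-stimulated genes, which restrict viruses, were in part higher. Of 30 listed 18 rose and 12 did not pass, with a median of 1.27 beside 2.28 in uIRI. The count was 7 without sham 1 and 8 without sham 2. The RNA sensor gene Ddx58 (RIG-I) went from 25.6 and 34 to 99.2, 110.3 and 108 CPM (1.83 ± 0.22, adjusted p = 0.000423), a non-overlapping difference of 3.55-fold. Oasl1 rose by 2.32 ± 0.29 and the transcription factor gene Irf1 by 1.97 ± 0.31. Ifit3, an inhibitor of viral translation, held 16.3 and 35.8 CPM in sham and 31.7, 32.4 and 29.3 in uIRI+MSC, with every uIRI+MSC library between the sham libraries (0.26, 95% interval -0.87 to 1.38), while uIRI stood at 55.3, 49.5 and 148. Gbp2, a GTPase that attacks pathogen vacuoles, held 18.8 and 18.6 CPM in sham and 72.5, 163 and 82 in uIRI+MSC (2.50 ± 0.70, adjusted p = 0.02). Both carry the response element of these genes in the 250 bases before their start (RefSeq, GRCm38.p6, plus strand), Gbp2 at chr3:142620413-142620662 and Ifit3 at chr19:34583279-34583528, shown with matches to GAAA, any 2 bases and GAAA, on either strand, in capitals.
Gbp2: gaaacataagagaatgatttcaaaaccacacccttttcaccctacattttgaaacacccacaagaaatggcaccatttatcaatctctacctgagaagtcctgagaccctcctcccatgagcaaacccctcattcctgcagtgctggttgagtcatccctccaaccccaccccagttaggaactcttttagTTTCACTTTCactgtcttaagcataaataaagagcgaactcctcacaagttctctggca
Ifit3: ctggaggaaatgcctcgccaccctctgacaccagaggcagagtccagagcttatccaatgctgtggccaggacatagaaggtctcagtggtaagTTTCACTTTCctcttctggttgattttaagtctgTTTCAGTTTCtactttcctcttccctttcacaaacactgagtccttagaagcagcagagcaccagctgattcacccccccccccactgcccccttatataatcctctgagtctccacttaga
The element was in the windows of 10 of 22 listed genes found in the table (45.5%), against 3.46% of all genes. Of these 10, 5 rose and 5 did not pass, and of the 12 without it 8 rose. Gbp2 and Ifit3 were chosen for display after their values were seen, as 1 gene that rose and 1 that did not pass.

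Matrix genes were mostly higher. Of 33 fibroblast and matrix genes 29 rose and none fell, with a median of 2.59 (3.22 in uIRI). Fn1, which encodes the scaffold protein fibronectin, stood at 36.7 and 45.1 CPM in sham, 923, 486 and 919 in uIRI+MSC and 1628, 1194 and 788 in uIRI, and changed by 4.24 ± 0.44 (adjusted p = 0.00023). Col1a1, the chain of fibrillar collagen I, went from 36.9 and 64.8 to 792, 417 and 590.1 CPM, with uIRI+MSC 2 the lowest of its group and still above both sham libraries (3.56 ± 0.50, adjusted p = 0.000866). The profibrotic cytokine gene Tgfb1 rose by 2.43 ± 0.18, the matricellular gene Thbs2 by 3.56 ± 0.27, and Col4a1, a basement membrane collagen and 1 of the 5 rises of highest CPM, by 1.77 ± 0.28. Acta2, the smooth muscle actin of myofibroblasts, did not pass (40.1 and 94.7 CPM in sham, 136, 99.8 and 158 in uIRI+MSC, log2 change 0.96 ± 0.44, adjusted p = 0.107, 95% interval -0.03 to 1.95). It passed without sham 2 (1.74, adjusted p = 0.0342) and on the scale of library size alone (1.45, adjusted p = 0.0293).

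Proliferation genes were higher than in sham. Of 26 cell cycle genes 24 rose, the cyclin gene Ccnd1 fell and the nucleotide synthesis gene Tyms did not pass, and the median was 2.03 in uIRI+MSC and 2.02 in uIRI. Mki67, the proliferation marker, held 7.38 and 7.18 CPM in sham, 40.8, 40.2 and 64.9 in uIRI+MSC and 49.8, 41.8 and 38.1 in uIRI (2.74 ± 0.26, adjusted p = 0.000182). The spindle checkpoint gene Bub1b rose by 2.65 ± 0.21 and the replication helicase gene Mcm3 by 2.18 ± 0.16. Of 19 immediate early genes 13 rose and none fell (median 1.48), with Klf6 at 2.65 ± 0.17 and the AP-1 gene Fosl2 at 2.37 ± 0.20, while Jund (0.26) and Dusp1 (-0.44) did not pass. Jund passed with library size alone (0.78, adjusted p = 0.00767).

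**Figure D4:**
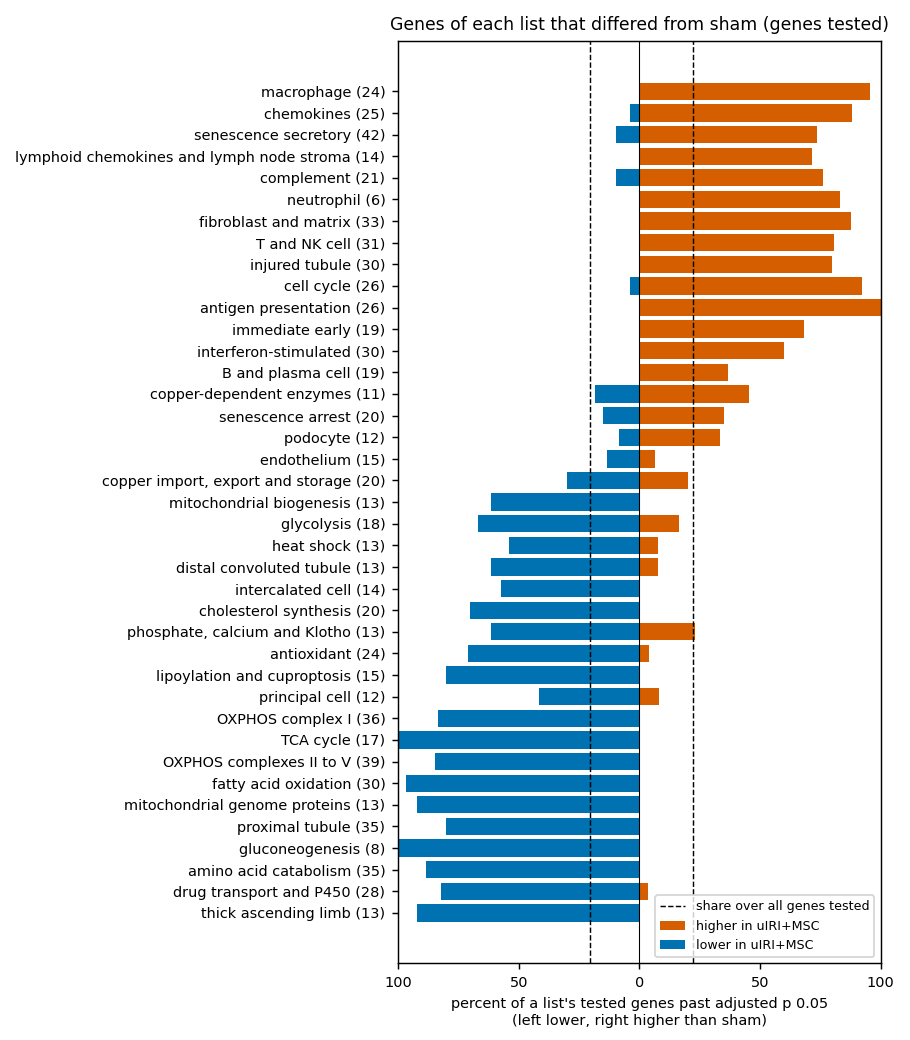
Percent of the tested genes of each list that were higher (right) or lower (left) in uIRI+MSC than in sham at an adjusted p of 0.05, with the number of genes tested in brackets. Dashed lines mark the shares over all genes, 22.1% higher and 20.3% lower.

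In the other direction, genes of the nephron's transporting segments were lower than in sham. Lrp2, the endocytosis receptor megalin of the proximal tubule, held 4118 and 4227 CPM in sham, 1326, 1126 and 1319 in uIRI+MSC and 247, 812 and 651 in uIRI. Each uIRI+MSC library lay below both sham libraries and above every uIRI library. The change against sham was -1.73 ± 0.41 (adjusted p = 0.00961), and it missed the threshold without sham 1 (-1.72, adjusted p = 0.0506). Of 35 proximal tubule genes 28 fell, none rose and 7 did not pass, beside 20.3% lower over all genes, with a median of -1.64 (-2.81 in uIRI). Without sham 1 the count was 13 and without sham 2 18, with medians of -1.50 and -1.68. On the scale of library size alone 18 fell and 1 rose (median -1.11). The list median was -1.57, -1.63 and -1.76 in uIRI+MSC 1, 2 and 3 and -4.08, -2.30 and -2.63 in uIRI 1, 2 and 3.

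Slc7a13, an amino acid transporter of the late proximal tubule, fell from 1712 and 1047 to 113, 90.4 and 180.5 CPM (-3.43 ± 0.52, adjusted p = 0.00121). The water channel gene Aqp1 changed by -2.12 ± 0.30 and the creatine synthesis gene Gatm by -1.89 ± 0.35. Napsa and Cyp4b1, with Umod, Mep1a and Keg1, were the 5 falls of highest CPM past the 2-fold test, and changed by -2.41 ± 0.38 and -2.44 ± 0.46. The meprin protease gene Mep1a went from 4174 and 2669.5 to 919.9, 632 and 915 CPM. Slc2a2, the basolateral glucose transporter GLUT2, and Slc7a7, a basolateral amino acid transporter, were the members nearest to sham among those that did not pass. Slc2a2 stood at 158 and 163 CPM in sham and 101, 101 and 98.2 in uIRI+MSC (-0.69 ± 0.38, adjusted p = 0.175), without overlap, and passed in a fit of the sham and uIRI+MSC libraries alone (-0.68, adjusted p = 0.00587), as did Slc7a7 (-0.64, and -0.63 at adjusted p = 0.0266).

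In the thick ascending limb, which dilutes the urine, 12 of 13 genes fell (median -1.91, -1.69 in uIRI). The count was 9 and the median -1.41 with library size alone. Egf (ENSMUSG00000028017, chromosome 3, 129677565 to 129755316), the growth factor of the distal nephron, held 2302 and 2964 CPM in sham, 45.2, 40.3 and 92.1 in uIRI+MSC and 34, 42.7 and 105 in uIRI. Its level was 44.5-fold below sham (-5.48 ± 0.57, adjusted p = 0.000241), and the ranges of uIRI+MSC and uIRI overlapped. Umod, which encodes the urinary protein uromodulin, went from 6803 and 7478 to 1725, 700.3 and 2384 CPM (-2.16 ± 0.44, adjusted p = 0.0051), with uIRI+MSC 2 the lowest library of all. Ppp1r1a, a phosphatase inhibitor, changed by -3.34 ± 0.36, and Ptger3, a prostaglandin receptor, by -2.85 ± 0.33. Foxq1 was the single member that did not pass (-0.67, 95% interval -1.47 to 0.13).

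The distal convoluted tubule had 8 of 13 genes lower and 1 higher (median -0.88). With library size alone 4 were lower (median -0.37), and the single rise was lost with limma-voom and without sham 1, sham 2 or uIRI+MSC 2. Slc12a3, the thiazide-sensitive salt transporter, held 968 and 995 CPM in sham, 267, 279 and 283 in uIRI+MSC and 98.8, 185 and 207 in uIRI (-1.83 ± 0.27), and the calcium carrier gene Calb1 changed by -2.96 ± 0.58. The calcium-binding protein gene Pvalb was among the 10 largest falls, from 16.9 and 13.4 to 0.0419, 0.429 and 0 CPM. Its fitted change of -6.65 was -6.01 without uIRI+MSC 1 and -8.80 without uIRI+MSC 2. Principal cells had 5 of 12 genes lower and the sialyltransferase gene St6gal1 higher (1.66 ± 0.19), and the list median of -1.26 was -0.49 without sham 2. The vasopressin-regulated water channel gene Aqp2 went from 165 and 313 to 20.9, 27.4 and 25.6 CPM (-3.28 ± 0.52, adjusted p = 0.00161) and the sodium channel subunit gene Scnn1a from 200.3 and 208 to 63.3, 60.5 and 82.6 (-1.57 ± 0.18), while its partner subunit gene Scnn1b stood at 53.8 and 65.3 in sham and 53.7, 60.2 and 69.4 in uIRI+MSC (0.04, 95% interval -0.46 to 0.53). Of 14 acid-base regulating intercalated cell genes 8 fell, 5 without sham 1, 3 without sham 2 and 4 with library size alone (2 rising there), among them Slc4a1, an anion exchanger shared with red blood cells (65.5 and 113 CPM in sham, 9.97, 12 and 8.65 in uIRI+MSC, -3.13 ± 0.38). The red blood cell list summed to 424 CPM in sham 2, 125 in sham 1 and 47.1 to 156 in uIRI+MSC, and its part in this value was not tested.

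With TMM factors, lists of the glomerulus and of vessels had medians near sham. Among 12 podocyte genes 7 did not pass, 4 rose and 1 fell (median 0.18). With library size alone 7 rose and 0 fell (median 0.69), 2 rose without sham 1, the median was 0.44 without sham 2, and the fall was lost without any 1 of the 5 libraries. The slit diaphragm gene Nphs1 held 47.8 and 56 CPM in sham and 61.1, 66.5 and 51.7 in uIRI+MSC (0.21, 95% interval -0.17 to 0.58, adjusted p = 0.342), although it passed with library size alone (0.72, adjusted p = 0.0138). The phosphatase gene Ptpro rose by 0.94 ± 0.16. Of 15 endothelial genes 12 did not pass, with a median of -0.07, which was 0.43 with library size alone and 0.07 without sham 2. Pecam1 held 77.1 and 83.1 CPM in sham and 86.7, 83.3 and 109 in uIRI+MSC (0.21, 95% interval -0.13 to 0.55), and passed with library size alone (0.72, adjusted p = 0.00577). Kdr, the vascular growth factor receptor gene, fell from 109.7 and 143 to 76.9, 73 and 83.1 CPM (-0.70 ± 0.14, adjusted p = 0.00466), a call lost both without sham 2 (-0.46, adjusted p = 0.0583) and on the scale of library size alone (-0.20, adjusted p = 0.323).

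In phosphate and calcium handling, the hormone co-receptor gene Kl (Klotho) held 1327 and 1429 CPM in sham, 373, 362 and 462 in uIRI+MSC and 71.7, 219.8 and 207 in uIRI, without overlap of any groups, and was 3.45-fold below sham (-1.79 ± 0.40, adjusted p = 0.00744). The phosphate transporter gene Slc34a3 changed by -2.06 ± 0.36. Its relative Slc34a1, the main phosphate transporter of the proximal tubule, changed by -1.56 ± 0.44 (adjusted p = 0.0212) and lost the call with library size alone (-1.05, adjusted p = 0.0613) and without sham 1, sham 2, uIRI+MSC 2 or uIRI+MSC 3, at -1.54, -1.51, -1.53 and -1.42. With a replicate block it was -1.57 (adjusted p = 0.0503). Cyp24a1, which degrades active vitamin D, did not pass, with 213 and 209 CPM in sham, 158, 202 and 143 in uIRI+MSC and 25.1, 91.8 and 42.9 in uIRI (-0.33, 95% interval -1.33 to 0.67). Cyp27b1, which makes active vitamin D, was named after its values were seen. It held 4.47 and 10.8 CPM in sham, 39.6, 58.2 and 43.7 in uIRI+MSC and 4.95, 20.8 and 16.4 in uIRI, a change of 2.62 ± 0.61 (adjusted p = 0.00907). The call was lost without sham 1, where 0 of the 13 listed genes of phosphate, calcium and Klotho rose, against 3 with all libraries.

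Metabolic genes of the tubule were lower as groups. Acadm (ENSMUSG00000062908, chromosome 3, 153922357 to 153944632), the dehydrogenase for medium-chain fatty acids, held 1858 and 1302 CPM in sham, 247, 222 and 254 in uIRI+MSC and 86.5, 151 and 139.9 in uIRI. No groups overlapped, and uIRI+MSC was 6.55-fold below sham (-2.71 ± 0.26, adjusted p = 0.000178). Of 30 fatty acid oxidation genes 29 fell (median -1.37, -1.97 in uIRI), with the peroxisomal gene Crot at -2.29 ± 0.23. The count was 23 and the median -0.85 with library size alone, and the median was -1.25 without sham 1. Of 35 amino acid catabolism genes 31 fell (median -1.81), 27 with library size alone (median -1.29), and the median was -1.68 without sham 1. Kmo, of tryptophan breakdown, changed by -2.18 ± 0.20 and the leucine breakdown gene Mccc1 by -2.10 ± 0.20. All 8 gluconeogenesis genes fell (median -1.66), though only 4, 4 and 5 did so without sham 1, sham 2 and uIRI+MSC 3. G6pc, the last step of glucose release, went from 793 and 1049 to 143, 166 and 82.6 CPM (-2.82 ± 0.54, adjusted p = 0.00369).

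Of 28 genes of drug transport and cytochrome P450 23 fell and 1 rose (median -1.82, -3.28 in uIRI), 10 falling and 0 rising without sham 1, and 15 falling with library size alone. The organic anion transporter gene Slc22a7 fell from 568 and 303 to 3.77, 1.36 and 4.79 CPM, beside 2.12, 5.24 and 1.84 in uIRI, a change of -7.04 ± 0.60 (adjusted p = 0.000107). Cyp7b1, which hydroxylates oxysterols, changed by -5.88 ± 0.38 (-5.20 without sham 1). Of 20 cholesterol synthesis genes 14 fell (9 without sham 1 and 8 with library size alone), and here the medians were -1.05 in uIRI+MSC and -0.93 in uIRI. The controlling factor gene Srebf2 did not pass (-0.30, 95% interval -0.69 to 0.09).

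Transcripts of respiration, a subject named in the title of the series, were lower in each list followed. All 17 tricarboxylic acid cycle genes fell (median -1.27, -1.82 in uIRI), such as Idh2, which went from 558 and 543 to 208, 179.8 and 189.9 CPM (-1.52 ± 0.17). Of 36 nuclear genes of respiratory complex I 30 fell, and of 39 of complexes II to V 33, with medians of -1.26 and -1.31 and none higher. The complex I core gene Ndufs1 held 480.0 and 461 CPM in sham, 163, 167 and 167 in uIRI+MSC and 77.6, 128 and 113 in uIRI (-1.51 ± 0.20, adjusted p = 0.00066). Uqcrc2 of complex III changed by -1.31 ± 0.18 and Atp5f1 of the ATP synthase by -1.56 ± 0.18. Without sham 1 the counts were 15 and 17, and with library size alone 20 and 19.

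The library uIRI+MSC 3 bears on the size of this difference. Its list medians were -1.87 for complex I and -1.92 for complexes II to V, against -0.97 and -0.84 in uIRI+MSC 1 and -1.16 and -1.27 in uIRI+MSC 2. These genes are short, with median lengths of 2041 and 2520 bases, in the range where that library was low, and the part of gene length in the result was not tested. Without uIRI+MSC 3 the medians were -1.03 and -1.0, with 31 and 31 genes falling. Of 13 protein genes of mitochondrial DNA 12 fell (median -1.49), and 13 without uIRI+MSC 3, 7 without uIRI+MSC 1, 7 without uIRI+MSC 2, 5 without sham 1, 7 without sham 2 and 7 with library size alone. The cytochrome b gene mt-Cytb held 24725 and 22599.6 CPM in sham and 6541, 6597 and 11311 in uIRI+MSC, highest in uIRI+MSC 3 (-1.54 ± 0.34). The exception was mt-Atp6, at 2741 and 2456 CPM in sham and 858, 746 and 9468 in uIRI+MSC, whose change of 0.51 turned to -1.66 (adjusted p = 0.00359) without uIRI+MSC 3.

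Of 13 mitochondrial biogenesis genes 8 fell (median -0.64), 4 without sham 1, 4 without sham 2, 5 without uIRI+MSC 2 and 3 with library size alone, where 3 rose and the median was -0.12. Tfam, which packs mitochondrial DNA, went from 79.1 and 65.7 to 39.2, 39 and 39.2 CPM (-0.89 ± 0.13, adjusted p = 0.00118). The coactivator gene Ppargc1a (PGC-1α) changed by -1.01 ± 0.31 (adjusted p = 0.0278), a call that was lost without sham 1, sham 2, uIRI+MSC 1 or uIRI+MSC 2 (-1.20, -0.71, -0.85 and -0.91) and with library size alone (-0.51). Of 24 antioxidant genes 17 fell and the cystine importer gene Slc7a11, with 1 count in sham, rose (median -1.20), a rise lost without sham 1. Sod2, the superoxide dismutase of mitochondria, went from 455 and 410.2 to 131, 134 and 126 CPM (-1.73 ± 0.21) and Nqo1, a quinone reductase, from 95.8 and 65.6 to 20.3, 15.9 and 19.1 (-2.13 ± 0.23), while the haem oxygenase gene Hmox1 did not pass (-0.08, 95% interval -0.52 to 0.35). Of 18 glycolysis genes 12 fell (7 without sham 1, 6 without sham 2 and 5 with library size alone) and 3 rose (5 with library size alone), with the hexokinase genes Hk2 at 4.27 ± 0.32 (5.02 without sham 1) and Hk3 at 2.80 ± 0.41, beside Pfkm at -1.23 ± 0.13 and Pgam1 at -1.14 ± 0.13.

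Copper is a subject of the series by its title. Slc31a1 (ENSMUSG00000066150, chromosome 4, 62360727 to 62391769), the plasma membrane importer CTR1, held 317 and 268 CPM in sham, 150.0, 147 and 147 in uIRI+MSC and 81.8, 117 and 103 in uIRI. No groups overlapped, and the change against sham was -0.98 ± 0.17 (adjusted p = 0.00216). Cp, which encodes the copper ferroxidase ceruloplasmin, went from 40.3 and 39.3 to 520.1, 573 and 588 CPM, beside 465, 542 and 429.6 in uIRI (3.81 ± 0.18, adjusted p = 3.7e-05). Of 20 import, export and storage genes 4 rose, 6 fell (2 without sham 1) and 10 did not pass. These shares, 20% higher and 30% lower, lay near the 22.1% and 20.3% over all genes. With library size alone 8 rose and 3 fell, and the median turned from -0.14 to 0.38. The metallothionein gene Mt2 rose by 2.02 ± 0.26, while Mt1 did not pass (34.7 and 28.7 CPM in sham, 53.1, 32.2 and 38 in uIRI+MSC, 0.38 ± 0.21, adjusted p = 0.185) except with library size alone (0.90, adjusted p = 0.00707). The exporting ATPase gene Atp7a did not pass either (0.34, 95% interval -0.14 to 0.81), and did with library size alone (0.84, adjusted p = 0.0123).

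Atp7b, a copper-exporting ATPase that also loads ceruloplasmin, held 11.6 and 5.89 CPM in sham and 3.94, 3.36 and 3.86 in uIRI+MSC, without overlap (-1.23 ± 0.36, adjusted p = 0.0237). That call was kept without sham 2 (-1.60, adjusted p = 0.0161) and lost without sham 1 (-0.63), without uIRI+MSC 1, 2 or 3 (-1.27, -1.16 and -1.22), with a replicate block (-1.21) and with library size alone (-0.70). Of 11 copper-dependent enzymes 5 rose and 2 fell (median 1.07), with 9 rises on the scale of library size alone and 0 falls without sham 1. The rises were those of Aoc1, a diamine oxidase, and 4 lysyl oxidase genes that cross-link collagen, of which Loxl1 and Loxl2 stand in the matrix list too. Loxl1 went from 14.8 and 13.9 to 112, 87.2 and 86.4 CPM (2.73 ± 0.22), and Aoc1 from 2.82 and 8.10 to 232, 275 and 191, beside 116, 196 and 102 in uIRI (5.40 ± 0.51, and 6.40 without sham 2). Of 15 genes of protein lipoylation and cuproptosis, the form of cell death that excess copper sets off at lipoylated enzymes, 12 fell and none rose (median -1.24). With library size alone 10 of them fell and 1 rose (median -0.72). Gcsh, a lipoyl carrier protein, went from 154 and 139 to 44.8, 38.7 and 37.9 CPM (-1.85 ± 0.13, adjusted p = 7.28e-05), and the ferredoxin gene Fdx1 changed by -1.58 ± 0.29.

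Senescence, the remaining subject of the title, was followed in arrest and secretory genes. Cdkn1a (ENSMUSG00000023067, chromosome 17, 29090979 to 29100722), the gene of the cell cycle inhibitor p21, held 11.6 and 16.6 CPM in sham, 42.1, 39.6 and 38.1 in uIRI+MSC and 73.8, 53.7 and 64.8 in uIRI, without overlap of any groups (1.50 ± 0.20 against sham, adjusted p = 0.000709). Cdkn2a, which encodes the arrest proteins p16 and p19, had 26 counts in uIRI+MSC and 1 in sham. The ratio was 11.0, with a 95% counting interval from 1.82 to 453 (adjusted p = 0.0312). Its call was lost with DESeq2 (3.41) and limma-voom (2.73) and without sham 1 (2.43), uIRI+MSC 1 (3.12) or uIRI+MSC 3 (3.32), and the fitted change was 6.37 without sham 2. Of 20 arrest genes 7 rose (13 with library size alone), 3 fell (0 without sham 1 and 1 with library size alone) and 10 did not pass (median 0.24). Lmnb1, a lamin whose loss marks senescence, rose by 1.45 ± 0.20, and Trp53 by 0.92 ± 0.14.

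Of 42 secretory genes 31 rose and 4 fell (1 without uIRI+MSC 1 or 3, 2 without uIRI+MSC 2, sham 1 or sham 2, and 0 with library size alone), with a median of 3.13 (2.92 with the 6 genes without counts in sham at their bound, 3.22 in uIRI). Many are also chemokines or matrix genes of leukocytes and fibroblasts, and Ccl2 and Tgfb1 stand in those lists. Lif, a cytokine of the interleukin-6 family, went from 0.680 and 0.737 to 17.1, 26 and 19.1 CPM (4.86 ± 0.35, adjusted p = 7.26e-05), and the membrane protease gene Mmp14 from 11.4 and 16.5 to 198, 140.2 and 186 (3.65 ± 0.31). Igfbp4 (-0.58, 95% interval -1.42 to 0.26) and Igfbp7 (0.16, -0.29 to 0.61), binding proteins of insulin-like growth factors, did not pass, Igfbp7 doing so with library size alone (0.68, adjusted p = 0.0209).

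**Figure D5:**
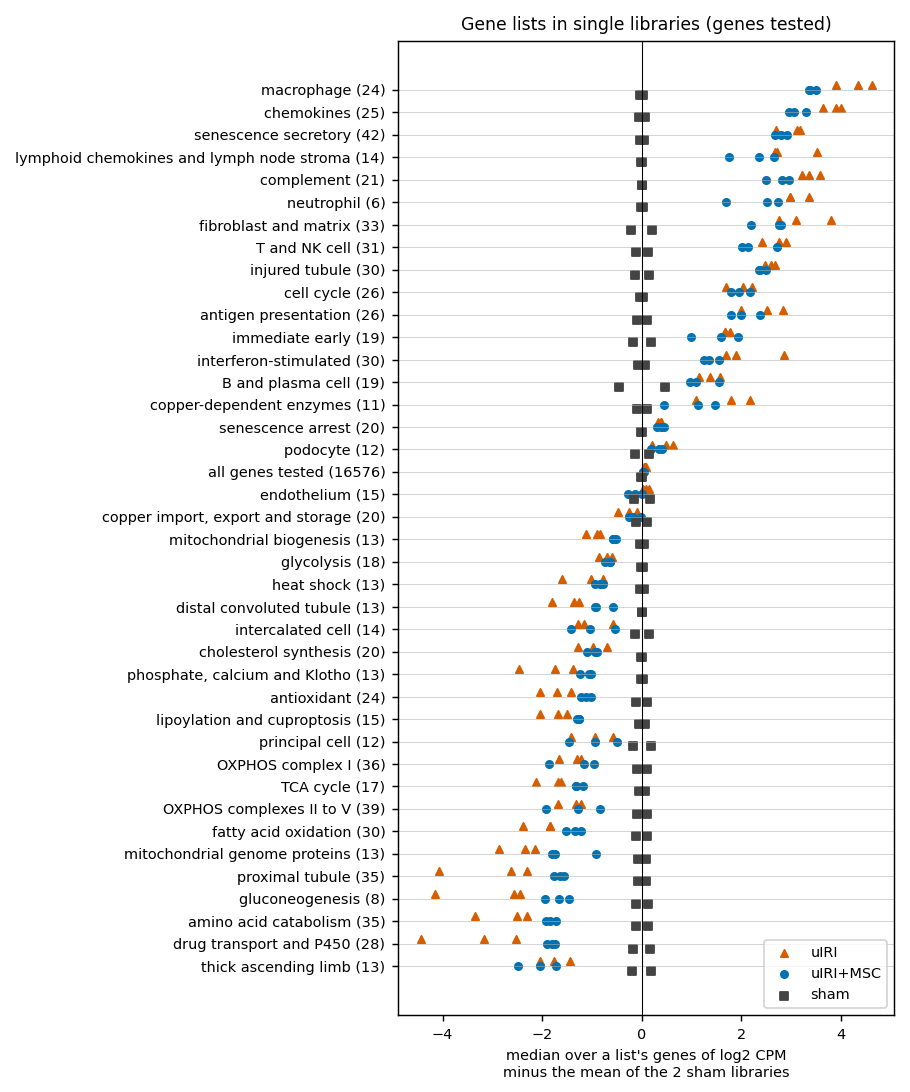
Median over the tested genes of each list (number in brackets) of the log2 CPM minus the mean of the 2 sham libraries (x axis), 1 mark per library. The uIRI+MSC circles lie away from the sham squares in most lists, at -1.57 to -1.76 for proximal tubule and 3.35 to 3.50 for macrophage, and next to them for endothelium and copper import, export and storage.

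Among genes without overlap of the groups and with a mean FPKM (counts per length and depth) of at least 5 in the higher group, 8 of the 10 largest rises had 0 counts in both sham libraries. Each of their folds is a lower bound with sham set at 3 counts over the group, and Havcr1, above, was also among the 10. Below that FPKM minimum, and named after its values were seen, the chemokine gene Cxcl2 (mean FPKM 3.64, 10.6, 17.8 and 25.4 CPM in uIRI+MSC and 0 counts in sham) was at least 114-fold higher. The neutrophil chemokine gene Cxcl5 held 16.3, 11.4 and 11.4 CPM in uIRI+MSC, at least 96.9-fold higher than sham. The alternative-activation marker Retnla (8.25, 9.86 and 16 CPM, beside 39.6, 28 and 66.1 in uIRI) was at least 74.4-fold higher, and the interleukin-36 gene Il1f6 (6.57, 16.3 and 6.38 CPM) at least 65.3-fold. Sprr2f, an epithelial envelope protein gene, was at least 55.8-fold higher, Ms4a4a at least 34.0-fold and Defb36 at least 19.97-fold. Mmp7, a protease of injured epithelium (11.5, 2.07 and 17.2 CPM, at least 71.95-fold), and Ccl17, a T cell chemokine (4.10, 3.86 and 0.756 CPM, at least 22.8-fold), had low values in 1 library each. Their calls were lost without sham 1 (adjusted p = 0.0803 and 0.0772) or sham 2 (0.0713 and 0.0683) and with limma-voom (0.149 and 0.0768). Intervals and floors cover counting error only, since reads from amplified libraries are not independent molecules.

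Akr1c18, a hydroxysteroid dehydrogenase gene, had the largest fall of genes chosen the same way. It held 63.2 and 33.2 CPM in sham and 0 counts in all 3 uIRI+MSC libraries, at least 793-fold lower with uIRI+MSC set at 3 counts over the group. Ceacam2, a cell adhesion gene, had 3 counts in uIRI+MSC and a ratio of 714 (95% counting interval 243 to 3468). Nccrp1 went from 40.4 and 129 to 0.586, 0.643 and 0.168 CPM (-7.40, and -6.32 without sham 2). Serpina1d, Mettl7a2 and Methig1 completed the 10 largest falls at -6.53, -6.15 and -5.80. Serpina1d changed by -5.81 and -7.63 without sham 1 and uIRI+MSC 3, and Mettl7a2 by -5.56 and -6.78. Mettl7a2 and Methig1 overlap on chromosome 15, and Serpina1d, Ceacam2, Akr1c18 and Sprr2f belong to families of near copies, so their values are uncertain because no source used here states how shared reads were handled.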

How the data were processed

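Messenger RNA of mouse kidney was sequenced in 8 libraries, grouped by their treatment labels at day 14. Gene counts and FPKM were deposited by the authors in a single table with mouse GRCm38 coordinates, and the submitters' processing notes list HISAT2 2.0.4, Bowtie2 2.2.6, StringTie 1.3.3b, edgeR 3.2.0, SAMtools 1.9 and FastQC 0.10.1 with no role. The counting program, annotation release, strand setting and treatment of shared reads were not given in the sources used.

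The deposited raw counts were tested with edgeR 4.0.16 in R 4.3.3 (filterByExpr with a minimum count of 10, TMM factors, quasi-likelihood fit of all 8 libraries by group, Benjamini-Hochberg adjustment over 16576 genes at 0.05). Differences above 2-fold were tested with glmTreat. Fold changes are on the log2 scale with a prior count of 2 for library values. The SE, shown after ±, was derived from each log2 change and its quasi-likelihood F statistic. The 95% intervals of log2 changes are that SE times a t quantile with the fit's degrees of freedom. An interval therefore need not match its p-value exactly. "Rose" and "fell" mean past the threshold. FPKM, which the authors deposited, served as the minimum of 5 for naming and, set against the counts, to derive the gene lengths used here. Total counts of 11.6 to 24.3 in units of 1e6 set the precision of low genes. Named were the 10 largest rises and falls, the 5 of highest CPM past the 2-fold test in each direction, in each list up to 4 genes of smallest p and up to 2 nearest to sham, genes past the test against both sham and uIRI (0 found), and 30 fixed genes. Some genes that the rule names are not reported here. Cyp27b1, Gbp2 and other genes outside the rule were chosen after their values were seen. Members, lists and tests were chosen with earlier results of these data known. Alternatives were DESeq2 1.42.0, limma-voom (limma 3.58.1), other scalings and filters, fewer libraries and a replicate block. The fit was tested on simulated data. Promoter windows were the 250 bases before each start in RefSeq GRCm38.p6.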

Additional observations from a re-analysis of the deposited data

How the results depend on the processing

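Of 276 named genes 191 passed the test, and 168 of these passed in the same direction under every alternative that gave them a value (13 or 14 each). The number of differing genes was 7587 with DESeq2, 6480 with limma-voom, 7125 with median-of-ratios factors, 6688 without the count filter, 6584 with a stricter filter, 6941 without mitochondrial genome genes and 6327 in a fit of the sham and uIRI+MSC libraries alone. With library size alone 8752 genes differed, 7400 higher and 1352 lower, and these values changed sign: Ssbp1 to 0.46, Pam to 0.44, Hmgb1 to 0.47, Xbp1 to 0.41, Ltbr to 0.50, and the medians of the endothelium list to 0.43, the copper import, export and storage list to 0.38, the adipocyte list to 0.19 and the sex-linked list to 0.38. The sex-linked median also did so without mitochondrial genome genes (0.025) and without the filter (0.0094), and lay between -0.28 and 0.073 with 1 library left out. Leaving out 1 library gave 3938 to 6914 differing genes, 2388 to 3792 higher, 1550 to 3122 lower and 1093 to 1782 past the 2-fold test, each lowest without sham 1. With 1 library left out, medians ranged from -0.17 (without sham 1) to 0.070 (without sham 2) for endothelium, from -2.26 (without uIRI+MSC 2) to 0.37 (without sham 2) for red blood cells and from -5.79 (without uIRI+MSC 3) to 1.95 (without sham 2) for urothelium, and mt-Atp6 changed by -1.66 (adjusted p = 0.00359) without uIRI+MSC 3 and 0.99 without uIRI+MSC 2. The causes of these shifts were not tested. Same-numbered libraries did not deviate together (correlation 0.11 for uIRI+MSC 1 and sham 1, -0.12 for uIRI+MSC 2 and sham 2), and with a replicate block 5753 genes differed, 3069 higher and 2684 lower. With 2 sham libraries the spread of sham rests on a single difference, and genes of few counts, at a median SE of 0.59 in the least abundant of 5 equal bins, could not show small changes.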

Other observations

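Gene families taken by the start of their symbols were chosen after the data were seen, and some share genes with the lists. Not all lay on 1 side. Of 47 cytochrome P450 genes 9 were higher and 17 lower, beside 1 and 23 of 28 in the drug transport and P450 list. ABC transporters had 12 higher and 14 lower of 40, and claudins 5 and 5 of 20. Some families are not reported here. Of 307 solute carrier genes 139 were lower in uIRI+MSC than in sham and 48 higher, and of the 42 mitochondrial carriers among them (Slc25) 28 were lower and 1 higher. Peroxins, which build peroxisomes, were lower in 16 of 17 cases (median log2 change -0.86), acyl-CoA dehydrogenases in 10 of 10 (-1.49), mitochondrial ribosomal proteins in 56 of 77 (-0.74, none higher) and subunits named Atp6, mostly of the vacuolar proton pump, in 15 of 23 (-0.66, none higher). Cytosolic ribosomal proteins had a median near sham with TMM factors (0.13, 0.35 in uIRI), with 2 higher and 2 lower of 82. Higher were 9 of 12 Toll-like receptors (median 2.69), 23 of 42 collagens (1.57), 17 of 30 integrins (1.31), 8 of 14 S100 proteins (1.67) and 9 of 15 tubulins (0.92). Of 353 Zfp zinc finger genes 63 were higher and 14 lower (0.22). Over all genes tested, 22.1% were higher and 20.3% lower. Among gene types, 44.3% of protein-coding genes differed, against 24.9% of lincRNA genes and 28.5% of antisense genes, whose reads cannot be told from those of the opposite gene where the strand is not known.

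Other lists gave these values, to be read beside the 22.1% higher and 20.3% lower over all genes. Of 13 heat shock genes 7 were lower (4 without sham 1 and 4 with library size alone) and 1 higher (median -0.87, -1.13 in uIRI). Of 7 tested liver genes 2 were higher (0 with limma-voom and without sham 1, sham 2 or uIRI+MSC 2) and 3 lower (5 without uIRI+MSC 3 and 2 without sham 1), and the list summed to 153 and 252 CPM in sham, 178 to 320 in uIRI+MSC and 17.3 to 111 in uIRI. The fibrinogen gene Fgb, a member, held 2.53 and 3.31 CPM in sham, 12, 24.8 and 10.8 in uIRI+MSC and 1.08, 6.56 and 2.50 in uIRI (log2 change 2.44 ± 0.74, adjusted p = 0.0274), a call lost with limma-voom (2.31) and without sham 1, sham 2 or uIRI+MSC 2 (2.29, 2.68 and 1.97). Adrenal cortex genes (1 of 4 higher) summed to 3.31 to 13.8 CPM over the 8 libraries, adipocyte genes (0 of 3 passed) to 38.1 to 74.0 and skeletal muscle genes (2 of 4 higher, 1 without either sham library) to 14.1 to 79.7. Of 6 red blood cell genes 1 was lower (4 without uIRI+MSC 2), and none of 4 sex-linked genes passed.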
